A study of Mus musculus with 12 samples.

Results

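Genes of the interferon response and of the ISG15 pathway, 35 in all, were described in the pituitary glands of 12 adult male mice. They were chosen by name: a row of the deposited table belonged to the set where its gene symbol equalled one of 35 listed symbols. All 35 symbols had a row among the 18497 named genes of the table, and all 35 passed the filter on low values, which kept 18390 genes. Uba7 was put in the list with its low level in mimic glands already known, so its difference is a description.

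The glands came from mice injected at the zygote stage and transferred to CD1 recipient dams. In the mimic group, 6 glands came from wild-type F1 males of C57BL/6Jx129S1/SvlmJ, as the label spells the strain, whose zygotes had received a let-7f-5p mimic made of locked nucleic acid, in nuclease-free water at a concentration called stress-relevant. In the vehicle group, 6 glands came from males of that same genotype and strain whose zygotes had received the water alone. One library was made per gland from rRNA-depleted total RNA. The labels do not give litter or recipient dam, so glands were treated as separate animals. The p-values set each group difference against the spread between these glands. If glands of a group shared a litter, these p-values could be too small. The comparison asks whether an excess of let-7f in the zygote was followed by a different RNA level of these genes in the adult gland.

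Interferons are secreted proteins that cells release when they sense viral nucleic acid. Type I interferon binds a receptor whose kinases phosphorylate STAT2; a complex that holds STAT2 and IRF9 then binds the interferon-stimulated response element (ISRE) and switches on interferon-stimulated genes. ISG15 is a ubiquitin-like protein made by one of these genes. It is activated by the E1 enzyme UBA7, passed to the E2 enzyme UBE2L6, joined to target proteins by E3 ligases (HERC6 in mice), and removed by the protease USP18. The pituitary has an anterior lobe of hormone-secreting cells, an intermediate lobe and a neural posterior lobe, with resident macrophages and vessels among them. In bulk RNA, fewer cells of a type and less RNA per cell cannot be told apart.

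The sequence of let-7f-5p, from RefSeq (GRCm38.p6; one copy at chr13:48537889-48537910, minus strand), is shown because it is what was injected. Its seed, bases 2 to 8, is in capitals and in RNA letters.
let-7f-5p: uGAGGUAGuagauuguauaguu
The perfect complement of this seed, CTACCTC, was looked for in GENCODE M21 3' UTRs, taking 1 transcript for each gene symbol. It was present in 5 of the 35 genes (14.3%), against 1606 of 15462 tested genes with a 3' UTR (10.4%). The 5 were Trim25, Stat2, Oas2 and Oasl2, with 1 match each, and Parp14, with 2. The 3' UTR of Uba7, 110 bases long in this annotation, held 0 matches. None of the 5 genes with a match had an unadjusted p under 0.05 between the groups, and their log2 fold changes lay between -0.10 (Stat2) and 0.15 (Trim25).

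Promoter sequences of Isg15, Ifit3 and Uba7, from RefSeq (GRCm38.p6, 250 bases before to 50 after the start site, 5' to 3' on the gene's strand), are shown to compare 2 genes that carry the ISRE core with Uba7. Capitals mark every match to the ISRE core GAAANNGAAA on either strand. The Isg15 window is chr4:156200769-156201068 on the minus strand, the Ifit3 window chr19:34583279-34583578 on the plus strand, and the Uba7 window chr9:107975317-107975616 on the plus strand.
Isg15: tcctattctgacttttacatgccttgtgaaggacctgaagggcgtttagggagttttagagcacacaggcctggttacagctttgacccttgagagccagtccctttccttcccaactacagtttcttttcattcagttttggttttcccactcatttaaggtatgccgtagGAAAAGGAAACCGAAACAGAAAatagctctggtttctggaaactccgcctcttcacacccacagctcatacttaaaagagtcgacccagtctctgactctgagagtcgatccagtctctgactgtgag
Ifit3: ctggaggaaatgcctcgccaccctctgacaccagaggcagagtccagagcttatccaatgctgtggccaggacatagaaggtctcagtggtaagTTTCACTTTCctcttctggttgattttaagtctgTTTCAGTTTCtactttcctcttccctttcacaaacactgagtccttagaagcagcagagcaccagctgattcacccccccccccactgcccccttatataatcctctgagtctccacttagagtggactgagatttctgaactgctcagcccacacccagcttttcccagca
Uba7: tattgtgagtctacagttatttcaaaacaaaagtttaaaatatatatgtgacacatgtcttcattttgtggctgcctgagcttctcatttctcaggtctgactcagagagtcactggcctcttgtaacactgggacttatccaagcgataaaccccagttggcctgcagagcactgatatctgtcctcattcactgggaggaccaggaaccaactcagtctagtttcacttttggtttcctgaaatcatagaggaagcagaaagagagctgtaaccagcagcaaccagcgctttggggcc
In Isg15 the core began 78, 72 and 66 bases before the start site, so that its 3 matches overlap. In Ifit3 it began 156 and 122 bases before it, both on the opposite strand. The Uba7 window held no exact match to the core on either strand. It did hold tttcactttt, which differs from the Ifit3 match TTTCACTTTC in its last base only. Only exact matches were searched for and counted, so whether Uba7 has a working ISRE was not tested. Of the 27 listed genes with a promoter in the table, 10 (37.0%) had the core, against 3.99% of all 27025 genes with a promoter there. The 10 were Isg15, Stat2, Ifih1, Eif2ak2, Oas1a, Ifit1, Ifit3, Rsad2, Bst2 and Ifitm3. A second motif, the gamma-activated site TTCNNNGAA, which reads the same on both strands, occurred in 9 of the 27 (33.3%) and in 9.55% of all genes. Uba7 had 0 matches to it.

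All 35 genes were transcribed in the resting gland at a level above the filter, and their levels per kilobase of the longest coding transcript spanned 474-fold. Ifi27, a small mitochondrial protein induced by interferon, was highest at 2652 normalised counts per kb (mean of 12 glands). Ifitm3, which blocks virus entry at endosomes, followed at 1088, and Ifi35, which binds the transcription regulator NMI, at 791. Ifi27 and Ifitm3 did not overlap any neighbour in this order across the 12 glands, whereas Ifi35 overlapped Irf1 (751), and Irf1 overlapped Eif2ak2 (626). From Uba7 downward every gene overlapped the next in the order except Oas1a, which lay above Oas2 in all glands. Uba7 stood 6th, at 342 normalised counts per kb in mimic glands and 472 in vehicle glands. The lowest were Isg15 at 37.8, Oas1a at 25.8 and Oas2 at 5.59 normalised counts per kb, as means of 12 glands. Per kb, the RNA of Uba7 was above that of Isg15 in every gland; Isg15 was at 35.4 in mimic glands and 40.1 in vehicle glands.

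**Figure D1:**
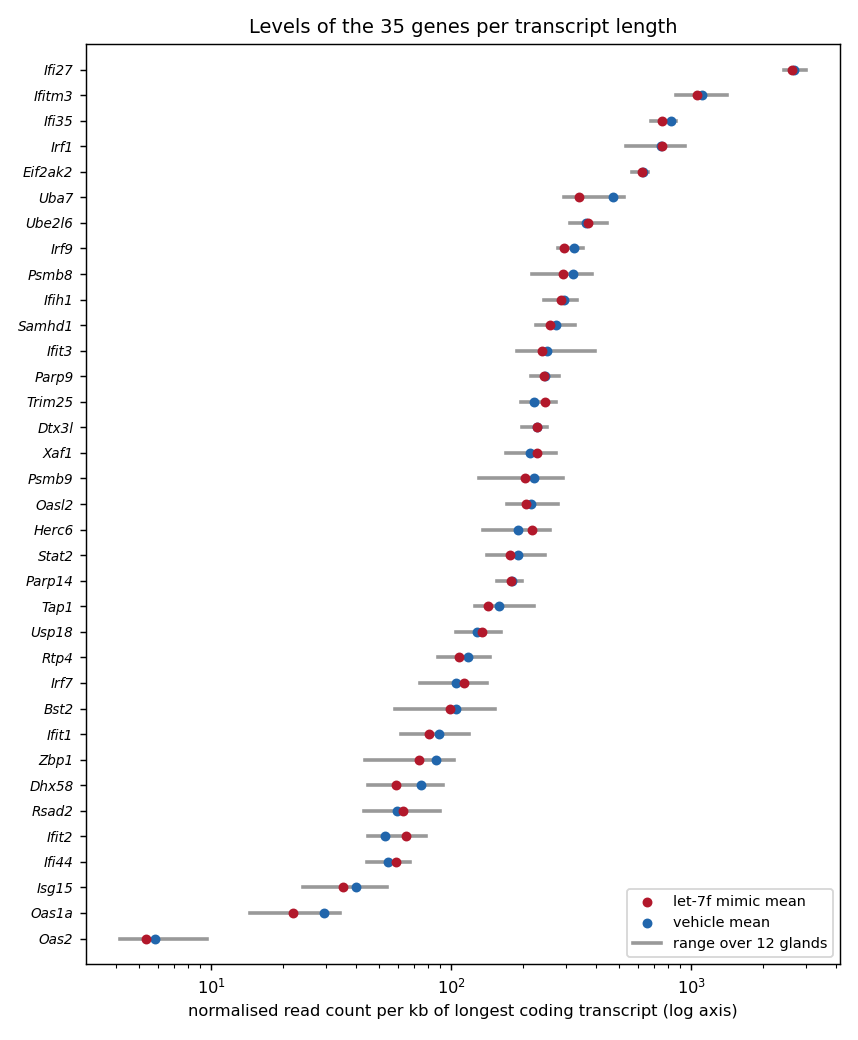
Level of each of the 35 genes per kb of its longest coding transcript (log axis), as the mean of 6 let-7f mimic glands (red) and of 6 vehicle glands (blue), with the range over all 12 glands as a grey bar. Ifi27 leads at 2652 normalised counts per kb and Oas2 is last at 5.59; the 2 group means lie close together for most genes, and furthest apart in position for Uba7, Ifit2, Dhx58 and Oas1a.

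Between mimic and vehicle glands, none of the 35 genes passed the test. Limma on log2(normalised count + 1), adjusted by the Benjamini-Hochberg method over all 18390 genes, called 0 of the 35, and 0% of all genes. The log2 fold change, mimic over vehicle, was above 0 for 13 genes and below 0 for 22, with a median of -0.03 and a range of -0.47 (Uba7) to 0.32 (Ifit2); the median of all tested genes was -0.0005. An unadjusted p under 0.05 was reached by 4 of the 35 (Uba7, Dhx58 and Oas1a lower, Ifit2 higher), against 4.78% of all genes. With posterior lobe markers as a covariate only Uba7 did so, and likewise without vehicle gland 1. With single glands left out, 1 to 6 of the 35 genes did: Uba7 with each of the 12 left out, Ifit2 with 10, Dhx58 with 5 and Oas1a with 5. The groups did not overlap for 1 of the 35, Uba7, with all mimic glands lower; 0.0707% of all genes had such a gap with mimic lower and 0.0489% with mimic higher. The 95% interval of the fold change lay within 2-fold in either direction for 35 of the 35 genes and within 1.5-fold for 30 of them, against 93.6% and 77.7% of all tested genes. On reads recovered from the deposited values, edgeR's quasi-likelihood test called 0 of the 35 (0% of all genes, 868 genes at an unadjusted p under 0.05). DESeq2 called 1 of the 35, Uba7 (0.0675% of the 14812 genes for which it gave an adjusted p). Because Uba7 was listed with its low mimic level known, its part in these counts cannot be set against the shares of all genes. Among the 34 other genes, limma called 0, and 1 higher and 2 lower reached an unadjusted limma p under 0.05. Depth was 26378308 to 37061136 recovered reads per library, and the median standard error of the 35 genes was 0.12 on the log2 scale.

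**Figure D2:**
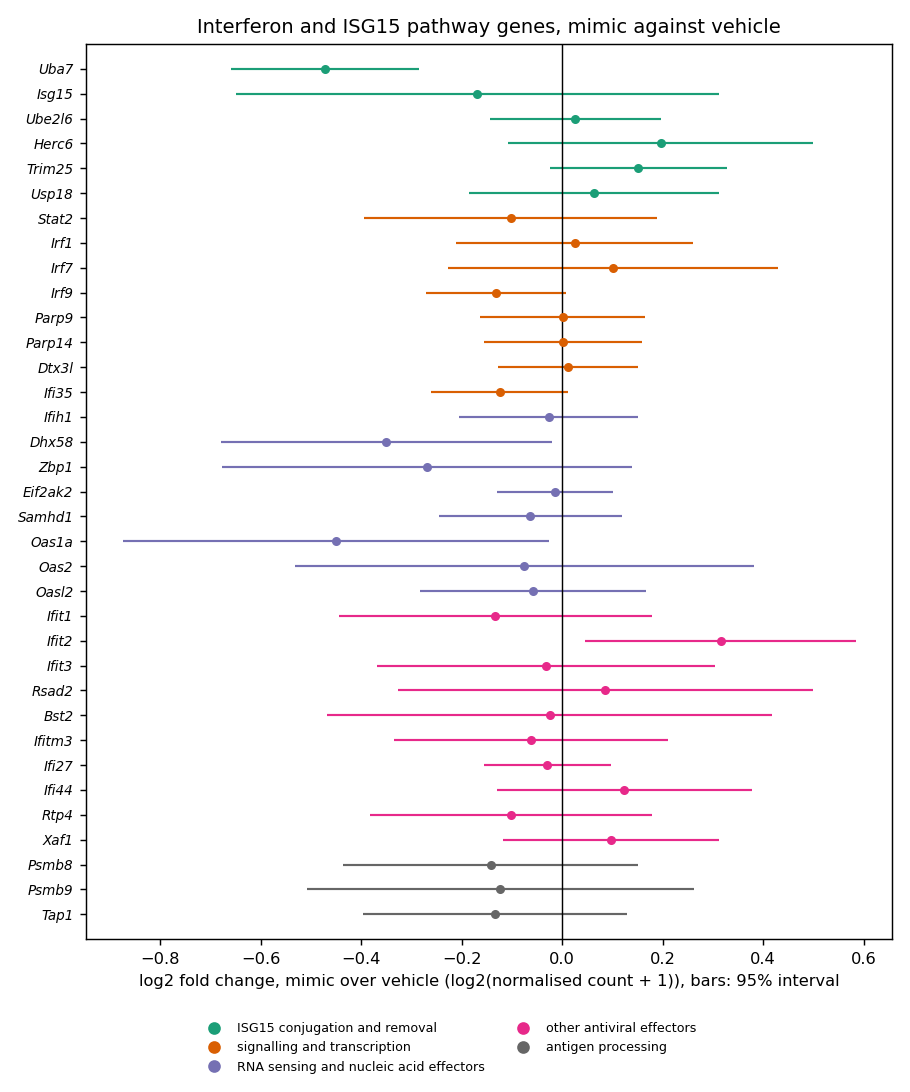
Log2 fold change, mimic over vehicle, on the log2(normalised count + 1) scale for each of the 35 genes, coloured by role, with its unadjusted 95% interval from limma (6 glands against 6). The intervals of Uba7, Dhx58 and Oas1a lie below 0 and that of Ifit2 above it; those of the other 31 genes span 0.

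The 6 genes of ISG15 conjugation and removal did not share a direction. Uba7, the E1 enzyme for ISG15, stood at 1107, 956, 1008, 940.4, 1306 and 1247 normalised counts in mimic glands 1 to 6, against 1677, 1461, 1429, 1409, 1505 and 1569 in vehicle glands 1 to 6. Every mimic gland was below every vehicle gland, with 103 normalised counts between the highest mimic gland and the lowest vehicle gland. The group means were 1094 ± 154 (mimic) and 1508 ± 101 (vehicle; SD, n = 6 each). The log2 fold change was -0.47 (SE 0.09, 95% interval -0.66 to -0.28), and the limma adjusted p over all genes was 0.822, with 6 of 6 mimic glands below the vehicle mean. By unadjusted p (8.94e-05, limma), Uba7 ranked 2nd of the 18390 genes. The adjusted p was 0.635 by edgeR and 0.0037 by DESeq2, and over all alternatives it ran from 0.0037 to 1.00.

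Markers of the posterior lobe and of the intermediate lobe differed between glands, and they are given here beside Uba7. The 9 measured posterior lobe markers summed to between 6726 and 10601 normalised counts in mimic glands and between 1166 and 21029 in vehicle glands. Between the groups, 8 of the 9 had a log2 fold change above 0 and 1 below, with a median of 0.62. All 4 intermediate lobe markers had a log2 fold change above 0, with a median of 0.96. An unadjusted limma p under 0.05 was reached by 3 of these 4 and by 1 of the 9, and 0 were called in either set. Intermediate lobe markers were not fitted as a covariate. Of the 9 posterior lobe markers, 1 was at 0 in at least 1 library. Vehicle glands 1, 4 and 6, low in both sets of markers, had 1677, 1409 and 1569 normalised counts of Uba7, and vehicle glands 2, 3 and 5 had 1461, 1429 and 1505. With posterior lobe markers added as a covariate, chosen after seeing the data, the log2 fold change of Uba7 was -0.44, and with immune markers as a covariate it was -0.48.

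For ISG15 itself and the other enzymes the groups overlapped. Isg15, the modifier itself, stood at 24.8, 18.2, 21.8, 27.1, 38.4 and 30.4 normalised counts in mimic glands 1 to 6, against 33.3, 19.3, 40.7, 38.0, 25.1 and 25.8 in vehicle glands 1 to 6. The groups overlapped over almost their whole ranges, with a log2 fold change of -0.17 (SE 0.22) and a limma adjusted p of 0.976. Ube2l6, the E2 enzyme, had a lowest, median and highest value of 549, 583 and 597 normalised counts in mimic glands, against 489, 557 and 695 in vehicle glands. The mimic glands were closer to one another (SD 18.6) than the vehicle glands (SD 69.2), and the log2 fold change was 0.03 (SE 0.08). Herc6, the main E3 ligase for ISG15 in mice, had 852, 1033 and 1229 normalised counts in mimic glands (lowest, median, highest), against 645, 929 and 1101 in vehicle glands. Its log2 fold change was 0.20 (SE 0.14), with 3 of 6 mimic glands below the vehicle mean. Trim25, an E3 ligase of the RIG-I pathway, had 1169.5, 1379 and 1528 normalised counts in the mimic group, against 1097, 1219 and 1469 in the vehicle group, in the same order. It was the gene of the 6 with the smallest unadjusted p after Uba7 (0.0852, limma; log2 fold change 0.15, SE 0.08). Usp18, which removes ISG15 and dampens the receptor, had 189, 244 and 261 normalised counts in mimic glands, against 185, 231 and 286 in vehicle glands (lowest, median, highest). Its log2 fold change was 0.06 (SE 0.12); the limma adjusted p of these 5 genes lay between 0.976 and 0.984.

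**Figure D3:**
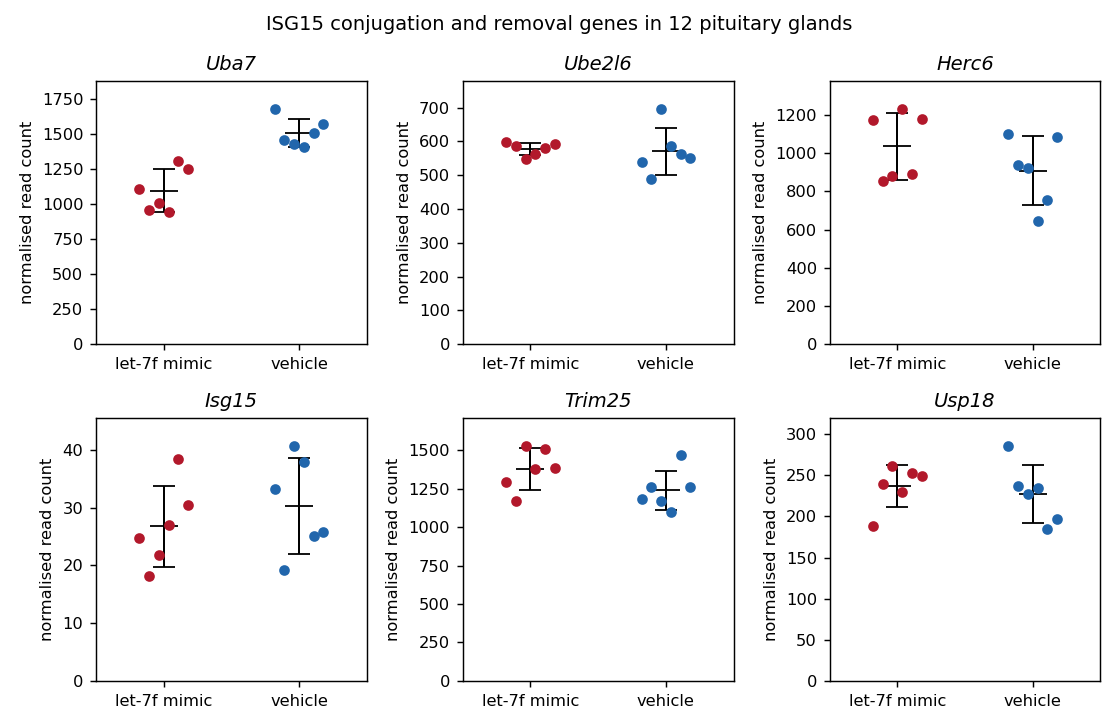
Normalised read count of the 6 genes of ISG15 conjugation and removal in each gland, let-7f mimic on the left (red) and vehicle on the right (blue), 6 glands each; the line and bars are the mean ± SD, and every axis starts at 0. Uba7 is the gene whose groups are apart (940.4 to 1306 normalised counts in mimic glands, against 1409 to 1677 in vehicle glands); the groups overlap for Ube2l6, Herc6, Isg15, Trim25 and Usp18.

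The genes on either side of Uba7 in the RefSeq table (GRCm38) did not overlap it. Of the nearest pair on each side, Traip had a log2 fold change of 0.19 (SE 0.33), Inka1 0.04 (SE 0.23) and Cdhr4 0.44 (SE 0.39); their limma adjusted p was at least 0.976, and Camkv was not analysed here. Farther along on the side of Inka1, and named after their values were seen, Ip6k1 had -0.08 (SE 0.05), Gmppb -0.11 (SE 0.09) and Rnf123 -0.30 (SE 0.13, unadjusted limma p 0.0379, limma adjusted p 0.976). On the side of Traip, Mon1a, also named after its values were seen, had -0.06 (SE 0.07). The other E1 enzymes of ubiquitin and its relatives, 9 genes, had log2 fold changes between -0.10 and 0.03, with 3 above 0 and 6 below, 0 called and 0 at an unadjusted p under 0.05.

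For the 8 genes of signalling and transcription, 5 log2 fold changes were above 0 and 3 below, their median was 0.00, and 0 were called. Irf9, the DNA-binding partner of STAT2, had a lowest, median and highest value of 821, 853 and 974 normalised counts in mimic glands, against 887, 946 and 1047 in vehicle glands. The upper mimic values reached into the vehicle range (log2 fold change -0.13, SE 0.07, unadjusted limma p 0.0631). Ifi35 had 928, 1024 and 1158 normalised counts in mimic glands, against 1031, 1143 and 1179.6 in vehicle glands, in the same order. Its log2 fold change was -0.12 (SE 0.06, unadjusted limma p 0.0711), with 5 of 6 mimic glands below the vehicle mean. Stat2 itself had -0.10 (SE 0.14) and its 617.4 to 909.9 normalised counts in mimic glands lay inside the 617.5 to 1084 of vehicle glands but for the lowest gland. Irf7, the factor that amplifies interferon production, had 0.10 (SE 0.15), and Irf1, a factor of the interferon gamma response, 0.02 (SE 0.11). Parp9 and Dtx3l, whose proteins form a ubiquitin ligase complex, and Parp14, an ADP-ribosyltransferase, all lay between 0.00 and 0.01 (SE 0.06 to 0.08).

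All 8 genes of RNA sensing and nucleic acid defence had a log2 fold change below 0, with a median of -0.07, and 0 of the 8 were called. This shared direction was not stable. Ifih1, Eif2ak2, Oas2 and Oasl2 each rose above 0 when certain single glands were left out. Ifih1 and Oas2 did so also with posterior lobe markers as a covariate. Dhx58, which encodes the RIG-I-like protein LGP2, stood at 109, 138 and 175 normalised counts in mimic glands (lowest, median, highest), against 136, 181 and 223 in vehicle glands. All 6 mimic glands were below the vehicle mean, but the ranges overlapped (log2 fold change -0.35, SE 0.15, unadjusted limma p 0.0391, limma adjusted p 0.976). Oas1a, one of the 2'-5' oligoadenylate synthetases that activate RNase L, had 27.3, 41.8 and 53.4 normalised counts in mimic glands, against 42.4, 58.6 and 65.0 in vehicle glands. These are low counts, and Oas1a has close paralogs between which shared reads may have been divided (log2 fold change -0.45, SE 0.20, unadjusted limma p 0.0387). Oas2 was lower still, at 16.6 to 26.1 normalised counts in mimic glands, against 17.4 to 38.1 in vehicle glands (log2 fold change -0.08, SE 0.21). Zbp1, a sensor of left-handed nucleic acid, had -0.27 (SE 0.19). Ifih1, the RNA sensor MDA5, had -0.03, the kinase gene Eif2ak2 (PKR) -0.01, the dNTP hydrolase gene Samhd1 -0.06 and Oasl2 -0.06, with standard errors of 0.05 to 0.11.

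Among the 10 other antiviral effectors, 4 had a log2 fold change above 0 and 6 below, with a median of -0.03 and 0 called. Ifit2, one of the tetratricopeptide proteins that bind viral RNA or block translation, stood at 258, 251, 251, 226, 255 and 242 normalised counts in mimic glands 1 to 6, against 177, 172, 300.5, 198, 183 and 184 in vehicle glands 1 to 6. All mimic glands exceeded 5 of the vehicle glands and lay below vehicle gland 3. The log2 fold change was 0.32 (SE 0.13, unadjusted limma p 0.0248, limma adjusted p 0.976), and 0.43 without vehicle gland 3. Over the alternatives its adjusted p lay between 0.745 and 1.00. The 2 related genes on the same scale had -0.13 (Ifit1, SE 0.15) and -0.03 (Ifit3, SE 0.16); Ifit3 has a close copy that may share its reads. Ifi44 had 144.5 to 197 normalised counts in mimic glands, against 130.3 to 196 in vehicle glands (log2 fold change 0.12, SE 0.12). Ifitm3 had 587 to 860.4 normalised counts in mimic glands, against 607 to 953 in vehicle glands, and Ifi27 had 2371 to 2680.1 in mimic glands against 2378 to 2945 in vehicle glands. Their log2 fold changes were -0.06 (SE 0.13) and -0.03 (SE 0.06). The other effectors were Rsad2 (viperin) at 0.09, Xaf1 at 0.10, Rtp4 at -0.10 and Bst2 (tetherin) at -0.02 on the log2 scale, with standard errors of 0.10 to 0.21.

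The 3 genes of antigen processing had similar values below 0: Psmb8 -0.14 (SE 0.14), Psmb9 -0.12 (SE 0.18) and Tap1 -0.13 (SE 0.12) on the log2 scale. Psmb8 and Psmb9 encode immunoproteasome subunits, and Tap1 a subunit of the peptide transporter into the endoplasmic reticulum. Tap1 had 374, 416 and 471 normalised counts in mimic glands (lowest, median, highest), against 372, 445 and 653 in vehicle glands, and Psmb8 had 353, 455 and 630.2 in mimic glands, against 415, 528 and 622 in vehicle glands. Single glands moved these values: with 1 gland left out, Psmb8 ran from -0.23 to -0.06 (without mimic gland 4), Psmb9 from -0.22 to -0.0047 (without mimic gland 4) and Tap1 from -0.19 to -0.03 (without vehicle gland 6). The ranges of the groups overlapped for all 3 genes, and the RefSeq promoter windows of Psmb9 and Tap1 overlap, since these genes are transcribed away from each other.

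Co-variation between glands was weak for most pairs of the 34 genes other than Uba7. Pearson's r of log2(normalised count + 1) over 12 glands was above 0 for 62.4% of the 561 pairs, with a median of 0.11, and its median on deviations from the group means was 0.12. The share of pairs above 0 among all other genes is not given here. Over all 595 pairs, Uba7 included, 54 had an unadjusted permutation p under 0.05 and 1 passed the Benjamini-Hochberg adjusted threshold. That pair was Isg15 and Ifi27. Ifi27 stood at 2634, 2371, 2468, 2603, 2680.1 and 2620.5 normalised counts in mimic glands 1 to 6 and at 2695, 2378, 2945, 2702, 2485 and 2513 in vehicle glands 1 to 6. Mimic gland 2 and vehicle gland 2 were lowest for both genes, and vehicle gland 3 highest for both. Pearson's r was 0.92 (permutation p 1e-05, the smallest that 100000 resamples can give; adjusted over the 595 pairs 0.00595), and Spearman's rho was 0.91 (permutation p 0.0001, adjusted 0.0595). It was 0.90 within mimic glands and 0.95 within vehicle glands, 0.90 without mimic gland 2 and vehicle gland 3, and 0.93 without vehicle gland 3 alone. On deviations from the group means, Ifi27 ranked 1st of 15276 genes by r with Isg15 (mean of at least 50 normalised counts). The Isg15 values rest on only 18.2 to 40.7 normalised counts per gland.

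The next pairs did not pass. Zbp1 and Psmb8 had r = 0.87 (permutation p 0.0002, adjusted 0.0595), and Ifit1 and Ifit3 r = 0.82 (permutation p 0.00067, adjusted 0.0997). Ube2l6 and Ifit3 had r = 0.83 (permutation p 0.00294, adjusted 0.291), which was 0.33 without vehicle glands 2 and 3. On deviations from the group means, Ube2l6 had r = 0.90 with Ifit2, 0.84 with Ifit3 and 0.81 with Ifi44. It was above 0 with 21 of the other 33 genes. Ifit2 and Ifit3 had r = 0.85 on these deviations. Vehicle gland 3 was the highest of all glands for Ube2l6, Ifit2 and Ifit3. The most negative named pair was Ifih1 and Eif2ak2 (r = -0.75, permutation p 0.00515, adjusted 0.34). Parp9 and Dtx3l, whose proteins form one complex, had r = 0.07 (permutation p 0.838), and Psmb9 and Tap1, with their overlapping promoter windows, r = 0.54 (permutation p 0.0739).

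**Figure D4:**
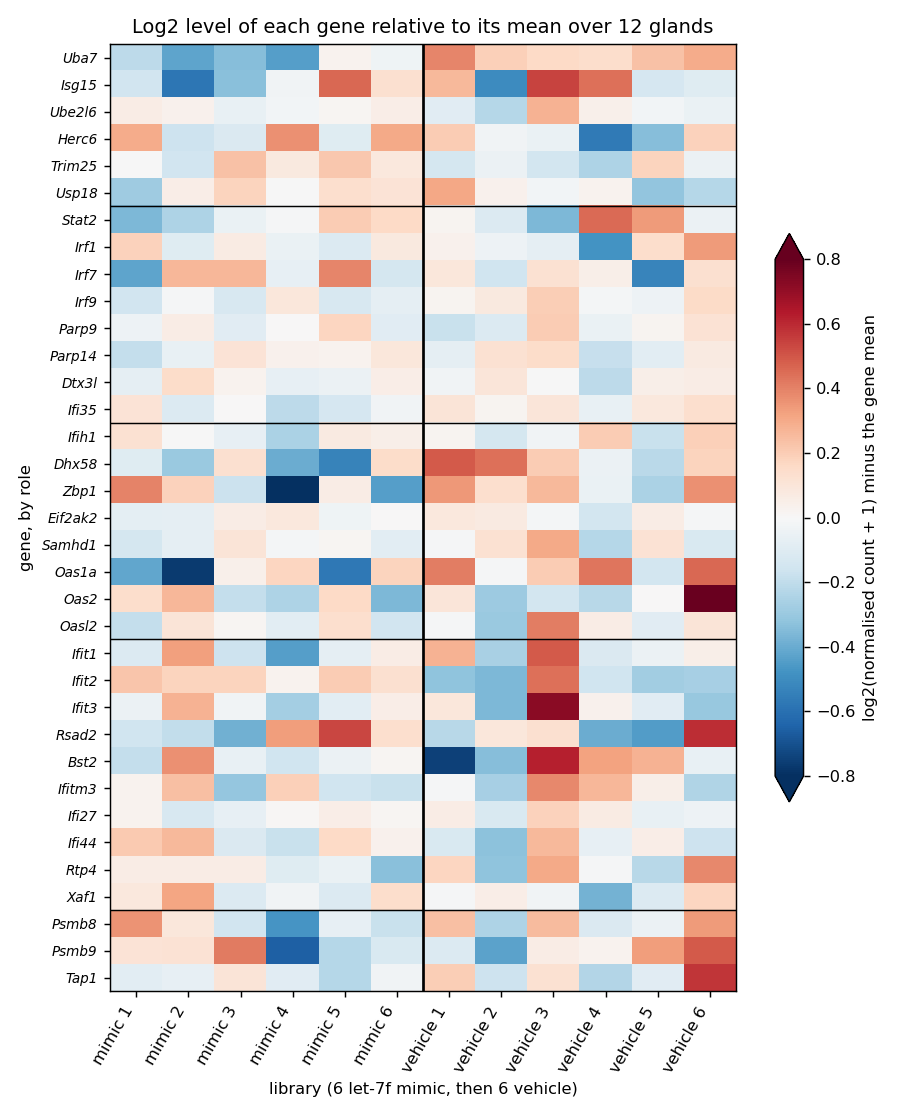
Level of each of the 35 genes in each library, as log2(normalised count + 1) minus the gene's mean over 12 glands, with the 6 let-7f mimic libraries left of the line and the 6 vehicle libraries right of it; colours are capped at 0.8 either way and horizontal lines part the roles. Uba7 is low in mimic libraries and high in vehicle libraries, and the column of vehicle 3 is high for many effectors.

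A few glands were often the highest or the lowest. Vehicle gland 3 was the highest of the 12 for 13 of the 34 genes and vehicle gland 6 for 8 of them; vehicle gland 4 was lowest for 8 and mimic gland 4 for 6. The shares of all tested genes that were highest or lowest in these glands are not given here, so these counts are not particular to the list. Vehicle gland 4 also had the fewest recovered reads (26378308) and the most genes at 0 (56). The mean of the 34 genes, each centred on its 12-gland mean, was -0.02 ± 0.04 in mimic glands and 0.02 ± 0.11 in vehicle glands (log2, SD, n = 6 each). It ranged from -0.10 to 0.01 in mimic glands and from -0.11 to 0.18 in vehicle glands, so that the mimic range lay within the vehicle range. Vehicle gland 3 also had the highest level of the 14 markers of macrophages and other immune cells, 0.50 above their mean on the log2 scale, and the highest level of posterior lobe markers (1.499) and of endothelium markers (0.27) on that scale. The immune markers summed to 5202 to 6134 normalised counts in mimic glands and 5161 to 7940 in vehicle glands, none of the 14 was at 0 in any library. The part of these 3 sets of markers in the values of vehicle gland 3 was not tested. Without vehicle gland 3, the median log2 fold change of the 35 genes was 0.005, and without vehicle gland 2 it was -0.10.

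Uba7 was not shown to move with the other 34 genes. Over 12 glands its r with them had a median of 0.10, above 0 for 21 and below 0 for 13, and on deviations from the group means a median of 0.07, above 0 for 23. Within mimic glands the median was 0.08 (19 above 0) and within vehicle glands 0.15 (20 above 0). Of the 34 correlations, 1 had an unadjusted permutation p under 0.05 and 0 passed the adjusted threshold. That one was Ifi35, with r = 0.64 (permutation p 0.0273, adjusted over the 34 genes 0.743) and rho = 0.66 (permutation p 0.0241); r was 0.58 without the farthest 2 glands and 0.32 on deviations from the group means. With Isg15, r was 0.43 (permutation p 0.166), 0.81 within mimic glands and -0.14 within vehicle glands. With Ifit2 it was -0.58 (permutation p 0.051), and -0.12 on deviations. As a description, the r of Uba7 with the mean of the other 34 genes was 0.34 over 12 glands (0.20 to 0.48 with single glands left out) and 0.23 on deviations from the group means. Ranked by its mean r with the others on deviations, Uba7 was 27th of 35, between Ifit1 at the top (0.27) and Stat2 at the bottom (-0.23).

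**Figure D5:**
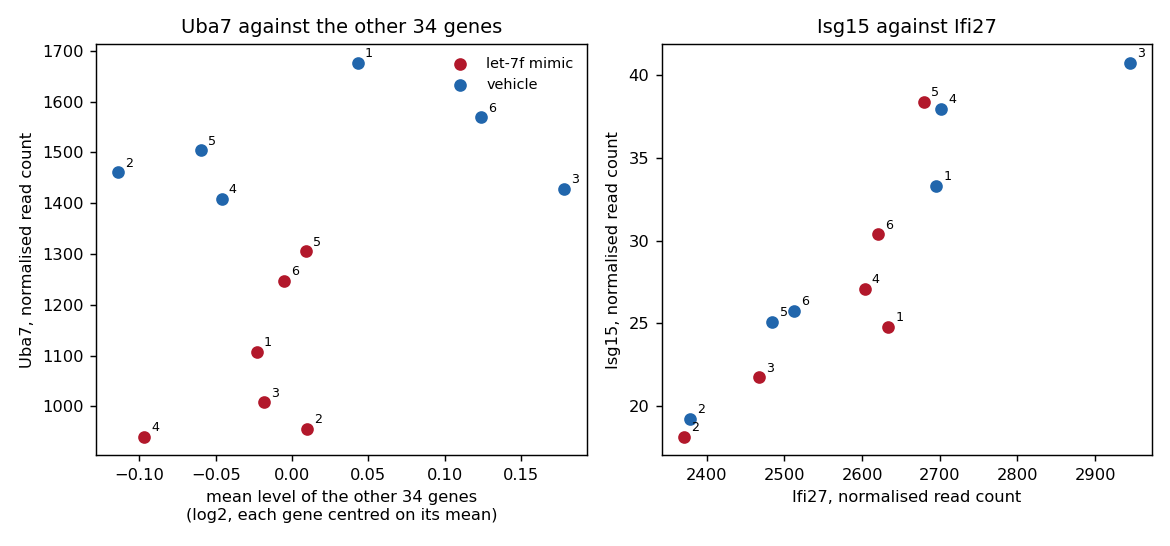
Left, normalised count of Uba7 in each gland against the mean log2 level of the other 34 genes, each centred on its 12-gland mean; right, normalised count of Isg15 against that of Ifi27. Points are glands, let-7f mimic in red and vehicle in blue, numbered by replicate: Uba7 is lower in every mimic gland than in any vehicle gland, whatever the level of the other genes (r = 0.34), and Isg15 follows Ifi27 in both groups (r = 0.92).

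The genes most like Uba7 between glands were not interferon genes of the list. On deviations from the group means over 12 glands, among 15275 genes with a mean of at least 50 normalised counts, the highest Pearson's r with Uba7 belonged to Zfp182 (0.93), Kdm2b (0.86), Lztr1 (0.83), Smco2 (0.83) and Ezh1 (0.82). The lowest belonged to Degs2 (-0.90), Slc16a8 (-0.86), Thap4 (-0.85), Nr2f2 (-0.84) and Anapc7 (-0.84). These are descriptions, chosen as extremes of many genes. Only 31 of the 15275 ranked genes were members, so their absence from these extremes cannot show whether Uba7 moves with them. None of the 10 had an unadjusted p under 0.05 between the groups, with log2 fold changes from -0.24 (Slc16a8) to 0.08 (Kdm2b). The 31 members above that mean ranked from 1492nd (Ifih1, r = 0.41) to 14530th (Ifitm3, r = -0.49) in this order. Isg15, Oas1a and Oas2 were below it and were not ranked; on the same deviations Isg15 had r = 0.45 with Uba7, the highest of the 34 genes.

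Other genes of the pathway, listed by role, were also measured: receptors and kinases, further transcription factors, nucleic acid sensors, feedback genes, further interferon-induced genes and the E1 enzymes above. Of 97 listed genes, 85 were tested, 0 were called by limma, 31 had a log2 fold change above 0 and 54 below, and the median was -0.04. An unadjusted limma p under 0.05 was reached by 5 of the 85 genes, all lower, against 4.78% of all genes (421 genes higher and 458 lower). Shisa5, an interferon-induced membrane protein of the endoplasmic reticulum, had 1736, 1772 and 1854 normalised counts in mimic glands (lowest, median, highest), against 1982, 2356 and 2740.0 in vehicle glands. The groups did not overlap (log2 fold change -0.37, SE 0.07, limma adjusted p 0.844, DESeq2 adjusted p 0.0038). Tapbp, which loads peptides on MHC class I, averaged 4727 ± 317 normalised counts over the mimic glands, against 5613 ± 778 over the vehicle glands (SD, n = 6 each) (log2 fold change -0.24, SE 0.08, limma adjusted p 0.976). Tlr7, an endosomal sensor of single-stranded RNA, had 15.7 to 52.3 normalised counts in mimic glands; vehicle glands 1, 2 and 3 had 1738, 1731 and 1861 and the other 3 had 19.6 to 32.5. Its difference therefore rests on 3 vehicle glands (log2 fold change -3.05, SE 1.15, limma adjusted p 0.976, DESeq2 adjusted p 0.0037). B2m had -0.26 (SE 0.12) and Psme1 -0.21 (SE 0.10), with the same limma adjusted p as Tapbp. Other antigen processing and MHC class I genes of the list were mixed. Psmb10 had -0.21 (SE 0.11), H2-D1 -0.10 (SE 0.07), Psme2 -0.02 (SE 0.08), H2-K1 0.001 (SE 0.07) and Tap2 0.01 (SE 0.12). The receptor genes Ifnar1 and Ifnar2 had -0.02 (SE 0.05) and -0.24 (SE 0.12). The 10 listed interferon ligand genes were not analysed here.

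The tissue label was checked on 10 anterior pituitary genes, which summed to between 3324900 and 4180300 normalised counts in mimic glands and between 3110600 and 5040000 in vehicle glands. None of the 10 was at 0 in any library. Most of the sum is growth hormone (Gh, log2 fold change 0.02, SE 0.13). Of the 10 genes, 8 had a log2 fold change below 0, with a median of -0.20. Prl, the prolactin gene, had -0.38 (SE 0.14, unadjusted limma p 0.0178, limma adjusted p 0.976). In Prl, 6 of 6 mimic glands were below the vehicle mean, as for Uba7. The same held for Tshb (log2 fold change -0.39, SE 0.20), Lhb (-0.34, SE 0.18) and Cga (-0.29, SE 0.17). Unlike for Uba7, the groups overlapped for Prl, Tshb, Lhb and Cga. Vehicle gland 4 had the highest value of all glands for each of them. In Lhb it had 21929 normalised counts, against a vehicle median of 10868. The part of these genes in the values of the 35 genes was not tested.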

How the data were processed

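Reads of 12 libraries (6 mimic, 6 vehicle) were trimmed with Trimmomatic 0.39 and quantified with kallisto 0.50.1 on GRCm39, with FastQC 0.12.1, MultiQC 1.28 and DESeq2 1.48.2 also named, per the submitters' processing notes. The deposited table gives a signal per gene, labelled as normalised counts by the authors, in 12 columns. Values were whole multiples of a step set by each library's size factor (0.817 to 1.17), and 100% gave whole reads within 0.001; a row without a gene name (0.0359% to 0.0567% of reads) was left out. Genes at 0 numbered 10 to 56 per library.

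Groups were compared by limma-trend (limma 3.58.1, R 4.3.3) on log2(value + 1) of genes with at least 10 in at least 6 libraries (18390), two-sided, Benjamini-Hochberg threshold 0.05; this scale understates changes of low genes. edgeR 4.0.16 and DESeq2 1.42.0 were run on the recovered reads. Alternatives were pseudocounts of 0.5 and 5, no filter, a minimum of 50, TMM and quantile scaling, the replicate number as a block, marker covariates, and leaving out each library. Correlations used two-sided permutation tests with 100000 resamples, adjusted over the 595 pairs or the 34 pairs with Uba7. The closest pair of libraries of a group differed 19.5 times more than counting error (chi-square per degree of freedom). kallisto divides reads of near-identical genes, so paralogs are uncertain. The tests were tested on simulated data. Sequences are from RefSeq on GRCm38.p6 and 3' UTRs from GENCODE M21, used by symbol and not by coordinate with the authors' build.

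The members and gene lists were chosen with earlier results of these data known. All members could be named. Given in most detail are the ISG15 conjugation genes, members with an unadjusted p under 0.05, the 2 of smallest p per role and the extremes of level. Also named are the 3 pathway genes of smallest p, the 5 genes most and the 5 least correlated with Uba7, and the neighbours of Uba7. B2m, Psme1, Psmb10, H2-D1, Psme2, H2-K1, Tap2, Ifnar1 and Ifnar2 were named after their values were seen.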

Additional observations from a re-analysis of the deposited data

Results flagged for a closer look

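In the 35 genes, 4 of 70 values per gene and group had 1 gland standing apart from the other 5 by Dixon's criterion for 6 values; chance flags about 1 in 20, or 3.5 of 70. Bst2 in mimic gland 2 was 101.2 normalised counts, against 68.4 to 79.2 in the other mimic glands. Ifit2 in vehicle gland 3 was 300.5 normalised counts, against 172.5 to 198.3 in the other vehicle glands. In the same gland Ifit3 was 693.1, against 327.6 to 446.7, and the levels of immune, posterior lobe and endothelium markers were each the highest of the 12 glands (0.50, 1.499 and 0.27 above their means, log2); the part of these markers in the 2 values was not tested. Oas2 in vehicle gland 6 was 38.1 normalised counts, against 17.4 to 23.1 in the other vehicle glands.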

How the results depend on the processing

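Under DESeq2 the count of called genes was 10, with 1 of the 35 members (Uba7, log2 fold change -0.4625) and 2 pathway genes (Shisa5 -0.3807, Tlr7 -5.0017); limma and every other alternative gave 0 for all 3 counts. The correlations of Uba7 had 0 calls under the 20 alternatives run for them, which did not include the count tests, filters, block or covariates. Of 415 settings over 38 named genes other than leaving out a library, 400 kept direction and call and 12 reversed a direction; of 456 that left out a library, 422 kept both and 34 reversed. With immune markers as a covariate, Bst2 was 0.0621 and Ifit3 0.0221. With posterior lobe markers, Dtx3l was -0.0001, Ifih1 0.0333, Oas2 0.0403, Parp14 -0.0241, Parp9 -0.0348 and Ube2l6 -0.0146. Under DESeq2, Parp14 was -0.0011 and Parp9 -0.0017, and under edgeR -0.0012 and -0.0018. Leaving out single libraries gave these log2 ranges for the genes that reversed: Bst2 -0.1761 to 0.0980, Dtx3l -0.0293 to 0.0324, Eif2ak2 -0.0451 to 0.0017, Ifi27 -0.0566 to 0.0050, Ifih1 -0.0645 to 0.0212, Ifit3 -0.1070 to 0.1089, Ifitm3 -0.1218 to 0.0080, Irf1 -0.0684 to 0.0958, Oas2 -0.1421 to 0.0748, Oasl2 -0.1230 to 0.0179, Parp14 -0.0357 to 0.0395, Parp9 -0.0348 to 0.0415, Rsad2 -0.0118 to 0.2132 and Ube2l6 -0.0165 to 0.0848. The cause of these reversals was not tested. Uba7 ranged from -0.5253 to -0.4306. The replicate block gave Uba7 -0.4719, a member median of -0.0323 and 0 calls. Same-numbered glands correlated between -0.1494 and 0.0860, and 1 of 6 numbers was best with its own, so the numbers were not used as pairs. Isg15, Oas1a and Oas2, at 16.6 to 65.0 normalised counts, are the members of lowest count.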
